A study of Capra hircus with 12 samples.

Results

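The miR-199 and miR-214 clusters were followed through the yearly cashmere cycle in secondary hair follicles (SHFs), which produce the fine cashmere fibre of the goat's coat. Members were chosen by name, as every listed goat miRNA called miR-199a, miR-199b, miR-199c or miR-214, with both arms where both were listed. This gave 5 of the 376 miRNAs listed, namely chi-miR-199a-5p, chi-miR-199a-3p, chi-miR-199b-5p, chi-miR-214-5p and chi-miR-214-3p, written below without the prefix of the goat. No miR-199c and no separate miR-199b-3p was among the names. All 5 members passed the filter on low counts that 300 miRNAs passed.

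These miRNAs are known from mesenchymal cells, the fibroblast-like cells that in skin make up the dermis, the dermal sheath and the dermal papilla. In mammals a miR-199a precursor and the miR-214 precursor are cut from one long RNA, DNM3OS, transcribed opposite to a stretch of the dynamin gene DNM3. The miR-199b precursor comes from a separate gene inside DNM1. Each precursor hairpin can release a mature miRNA from its 5′ side (5p) and from its 3′ side (3p), and the arms of one hairpin have different sequences and different targets. The mature 3p arms of miR-199a and miR-199b share one sequence in mammals, so the value listed as miR-199a-3p may hold reads from both precursors. In the RefSeq annotation of goat assembly ARS1.2, which is not the assembly used by the authors, MIR214 and MIR199A were neighbouring genes within the span of DNM3, and MIR199B lay within the span of DNM1.

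The libraries came from Liaoning cashmere goats of 1.5 years of age, 12 in number, and each of 6 months had a female and a male library. SHFs were dissected from back skin after the epidermis and connective tissue had been cut away. No group carried a treatment or a genetic change. February and March stood for telogen, the resting phase (4 libraries), May for early anagen, the start of growth (2 libraries), September for mid-anagen (2 libraries), and November and December for catagen, the phase of regression (4 libraries). How goats were combined into a library is not given in the sources used here, so p-values measure the spread between these libraries only, and a month, its goats and its season cannot be told apart.

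Each library held between 3135292 and 5788032 counts on miRNAs. Levels are given as the deposited TPM, the count per library total on a common scale, which for small RNAs carries no correction for length. Tests used counts scaled by TMM, a method that sets most miRNAs equal between libraries. The TMM factors were 1.25 and 1.29 in May and between 0.813 and 0.916 in the libraries of September, November and December, so a change in TPM and a change after TMM scaling differ wherever these months are compared. The median log2 change of all 300 miRNAs tested from May to September was 0.07 after TMM scaling and -0.46 when counts were scaled by library totals, and both scales are given below. With totals, that comparison called 21 miRNAs higher and 101 lower, against 56 and 46 after TMM scaling. The reads carried no molecular identifiers, so confidence intervals cover counting error only.

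The 3 miR-199 members were among the most abundant miRNAs of the follicle, and both miR-214 arms were far below them. By mean TPM, miR-199a-3p ranked 13, miR-199a-5p 15 and miR-199b-5p 19 of 376, whereas miR-214-5p ranked 132 and miR-214-3p 155. The 5 members together took from 2.31% of the counts in the female November library to 6.53% in the male May library. The miR-214 arms made up between 0.00799% and 0.0195% of the counts. In the library with the lowest level, female November, miR-214-3p had 98 counts, a share of 0.00284% with a 95% Wilson interval from 0.00233% to 0.00346%.

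miR-199a-5p is the arm from the 5′ side of a miR-199a hairpin. In telogen its TPM was 12408 in female and 14366 in male February libraries and 18235 and 16904 in those of March. In May it read 19525 and 22349, and in September 8294 and 8531. In catagen it was 8290 and 10763 in November and 10693 and 10180 in December. Both May libraries lay above all other 10, and every September and catagen library lay below every telogen library.

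miR-199a-3p, the opposite arm, had the highest mean level of the 5 members. Its TPM, female library first, was 13550 and 16014 in February, 17584 and 23088 in March, and 24306 and 25097 in May. It was 8823 and 10219 in September, 7639 and 8391 in November, and 12305 and 9087 in December. The May libraries were again the highest, the male March library came next, and the highest catagen value remained below the lowest telogen value.

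miR-199b-5p, named for the miR-199b locus, had TPM values of 9264 and 10300 in February, 12786 and 13099 in March, and 16152 and 17677 in May. From September on it stayed within 7066 and 8773, reading 7973 and 7550 in September, 7066 and 7674 in November, and 8773 and 7877 in December. The order of months was therefore May, March and February for all 3 miR-199 members in TPM, with both libraries of each month above both of the next. September, November and December followed, and overlapped in part. After TMM scaling May and March overlapped for miR-199a-5p, and February overlapped the later months for miR-199b-5p.

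**Figure D1:**
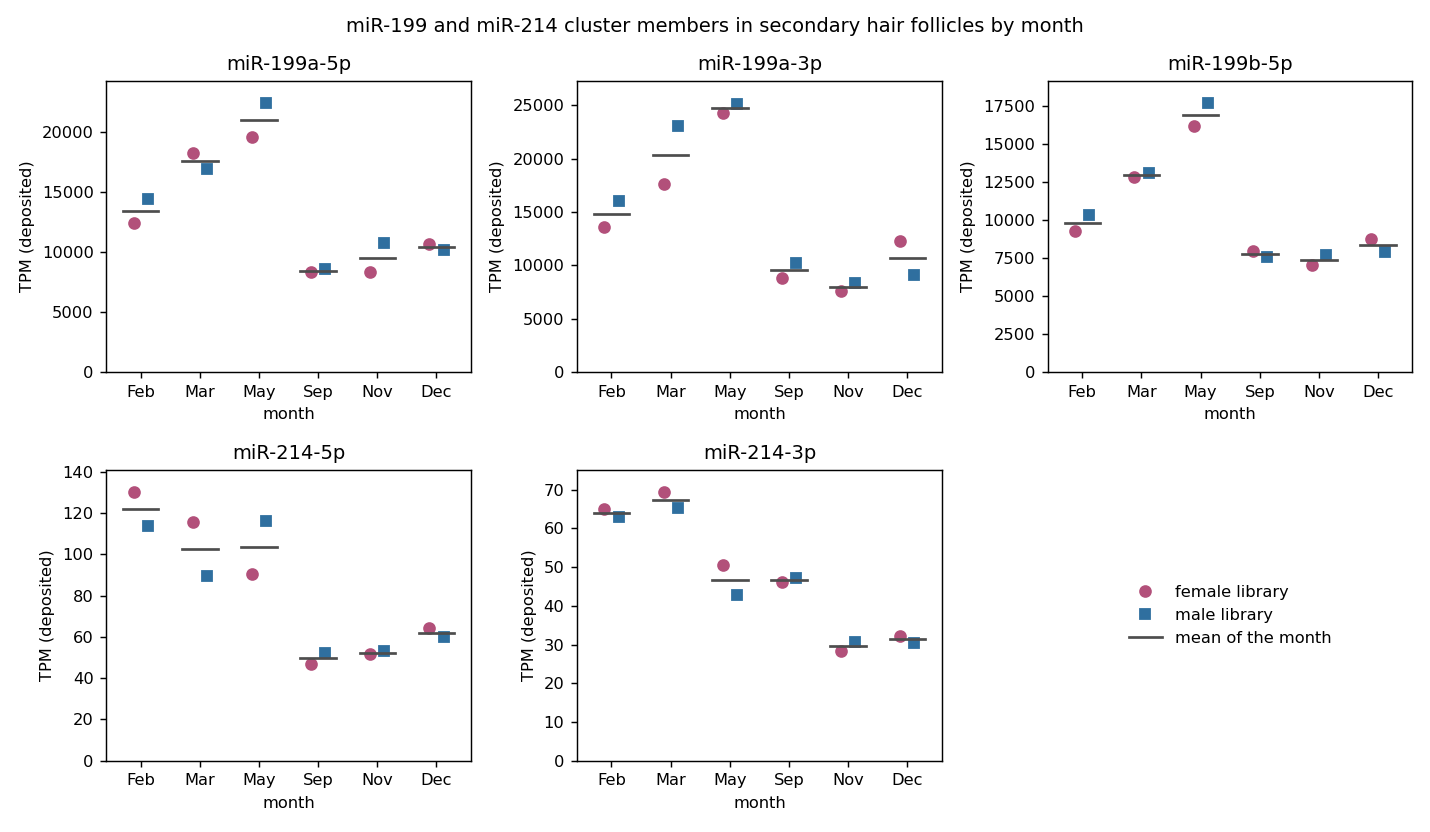
TPM (vertical axes, from 0) of the 5 members by month (horizontal axes) in female (circle) and male (square) libraries, with the mean of both libraries of a month as a line. The 3 miR-199 members were highest in May and low from September to December, whereas miR-214-3p was highest in February and March and lowest in November and December.

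The arms of miR-214 followed other courses. miR-214-5p had a TPM of 130 and 114 in February, 116 and 89.3 in March, and 90.7 and 116 in May. It read 46.8 and 52.4 in September, 51.5 and 53.1 in November and 64.2 and 60.0 in December. The telogen and May libraries overlapped, and all 6 of them lay above the 6 later ones.

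miR-214-3p, usually described as the main arm of miR-214, was the less abundant arm in all 12 libraries. Its TPM was 65.0 and 63.1 in February, 69.5 and 65.3 in March, 50.5 and 42.7 in May, and 46.3 and 47.3 in September. In catagen it read 28.4 and 30.7 in November and 32.2 and 30.5 in December. It was thus high in telogen, intermediate in May and September, which overlapped, and lowest in catagen, with no overlap between these 3 levels in TPM. After TMM scaling, May overlapped catagen and lay below September. September then overlapped telogen, with 53.0 CPM in male March against 54.6 and 51.8 CPM in the September libraries.

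From telogen to May the miR-199 members did not pass the test, while miR-214-3p was lower. edgeR's quasi-likelihood test with Benjamini-Hochberg adjustment over all 300 miRNAs called 1 of 5 members, where 5.33% of all tested were called. For miR-214-3p the TPM went from 65.7 ± 2.72 (SD, n = 4) to 46.6 ± 5.51 (SD, n = 2), a log2 change of -0.70 (SE 0.17, adjusted p = 0.0341). Among the miR-199 members, miR-199b-5p had a log2 change of 0.38 (SE 0.13, adjusted p = 0.0959), miR-199a-3p one of 0.30 (SE 0.16, adjusted p = 0.242) and miR-199a-5p one of 0.23 (SE 0.15, adjusted p = 0.311). Scaled by library totals, the change of miR-199b-5p was 0.57 (adjusted p = 0.041) and that of miR-214-3p -0.49 (adjusted p = 0.0779). The call of miR-214-3p was also lost when any of 7 libraries was left out, among them either May library (adjusted p = 0.139 without female May and 0.363 without male May). At the same step both arms of the leukocyte miRNA miR-223 were called lower, where 3% of all miRNAs were lower. miR-223-3p was at -1.64 (SE 0.42, adjusted p = 0.0388) and miR-223-5p at -1.59 (SE 0.38, adjusted p = 0.0341). The other leukocyte miRNAs tested were not called, miR-150 at -0.31 (adjusted p = 0.578) and miR-155-5p at -0.49 (adjusted p = 0.156). Over the 12 libraries miR-223-3p had a Pearson's r of 0.80 with miR-214-3p, the third highest of all tested, and its part in the change of miR-214-3p was not tested.

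From May to September, within the growth phase, all 3 miR-199 members fell, and miR-214-3p was not among the members called lower. Of the 5 members, 3 were called lower and 1 higher, against 15.3% lower and 18.7% higher among all miRNAs tested (34% in all). miR-199a-3p fell from a TPM of 24701 ± 559 to 9521 ± 987 (SD, n = 2 each), a log2 change of -0.85 (SE 0.19, adjusted p = 0.00677) after TMM scaling and of -1.38 (SE 0.25) with library totals. miR-199a-5p, with TPM of 20937 ± 1997 and 8413 ± 168 (SD, n = 2 each), had a log2 change of -0.79 (SE 0.17, adjusted p = 0.0059), and miR-199b-5p one of -0.59 (SE 0.16, adjusted p = 0.0125). None of these reached 2-fold after TMM scaling, at 1.80-fold, 1.72-fold and 1.51-fold lower, whereas all 3 did so with library totals. Calls of at least 2-fold made up 18.3% of all miRNAs tested on the first scale and 26.7% on the second.

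For miR-214 the outcome of this comparison depended on the scaling and the fit. The TPM of miR-214-3p was 46.6 ± 5.51 in May and 46.8 ± 0.714 in September (SD, n = 2 each), a log2 change of 0.00 with library totals (adjusted p = 0.985). After TMM scaling it was 0.53 higher in September (SE 0.19, adjusted p = 0.048), a call that was lost in each of the 12 fits that left out 1 library. miR-214-5p had a log2 change of -0.53 (SE 0.24, adjusted p = 0.11) after TMM scaling and of -1.06 (adjusted p = 0.00382) with library totals, there past 2-fold. It was also called lower with a filter of 100 CPM (-0.71, adjusted p = 0.0321) and in a fit of only the groups compared (-0.62, adjusted p = 0.0224). Relative to the median of all miRNAs, which takes out the scaling, miR-199a-3p changed by -0.92, miR-199a-5p by -0.85, miR-199b-5p by -0.66, miR-214-5p by -0.60 and miR-214-3p by 0.46. Leaving out male May ended the call of miR-199b-5p (adjusted p = 0.062), as did leaving out male September (0.0856), and leaving out female September ended that of miR-199a-3p (0.0604).

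From September to catagen no member was called by edgeR, and none by DESeq2. Over all 300 miRNAs edgeR called 0% here, with 23 (7.67%) at an unadjusted p under 0.05, and DESeq2 called 3. One member, miR-214-3p, had an unadjusted p under 0.05. It had a log2 change of -0.59 (SE 0.16, adjusted p = 0.271 by edgeR), with catagen TPM of 30.4 ± 1.59 (SD, n = 4). For miR-199a-3p and miR-199b-5p the changes were 0.00 (SE 0.17) and 0.04 (SE 0.14), and for miR-199a-5p and miR-214-5p 0.28 (SE 0.15) and 0.24 (SE 0.21).

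Telogen and catagen, with 4 libraries each, differed in miR-214 and in miR-199a-3p. From catagen to telogen 3 of 5 members were called, all of them higher, where 14% of all miRNAs were higher (35% called in all). miR-214-3p rose from 30.4 ± 1.59 to 65.7 ± 2.72 TPM (SD, n = 4 each), a log2 change of 0.76 (SE 0.13, adjusted p = 0.00163). miR-214-5p rose from 57.2 ± 5.96 to 112 ± 16.9 TPM, by 0.63 (SE 0.17, adjusted p = 0.0131), and miR-199a-3p from 9355 ± 2053 to 17559 ± 4043 TPM, by 0.55 (SE 0.14, adjusted p = 0.00873). These 3 calls held in each of the 12 fits without 1 library. miR-199a-5p and miR-199b-5p had changes of 0.28 (adjusted p = 0.0949) and 0.18 (adjusted p = 0.224). With library totals, which put the median of all miRNAs at 0.35, all 5 were called (36.3% of all miRNAs), with changes from 0.53 for miR-199b-5p to 1.11 for miR-214-3p.

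The remaining pairs of phases share their libraries with those above. From May to catagen the 3 miR-199 members were lower (16.3% of all tested were lower, 37% called in all). Their log2 changes were -0.85 (SE 0.16) for miR-199a-3p, -0.55 (SE 0.13) for miR-199b-5p and -0.51 (SE 0.15) for miR-199a-5p. The last 2 calls were lost without male May, at adjusted p of 0.0586 and 0.125. From telogen to September miR-214-5p (-0.87, SE 0.22), miR-199a-5p (-0.55, SE 0.15) and miR-199a-3p (-0.55, SE 0.17) were lower, where 10.3% of all tested were lower and 25.3% called. All 3 calls were lost without either September library, with adjusted p from 0.0658 to 0.207.

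**Figure D2:**
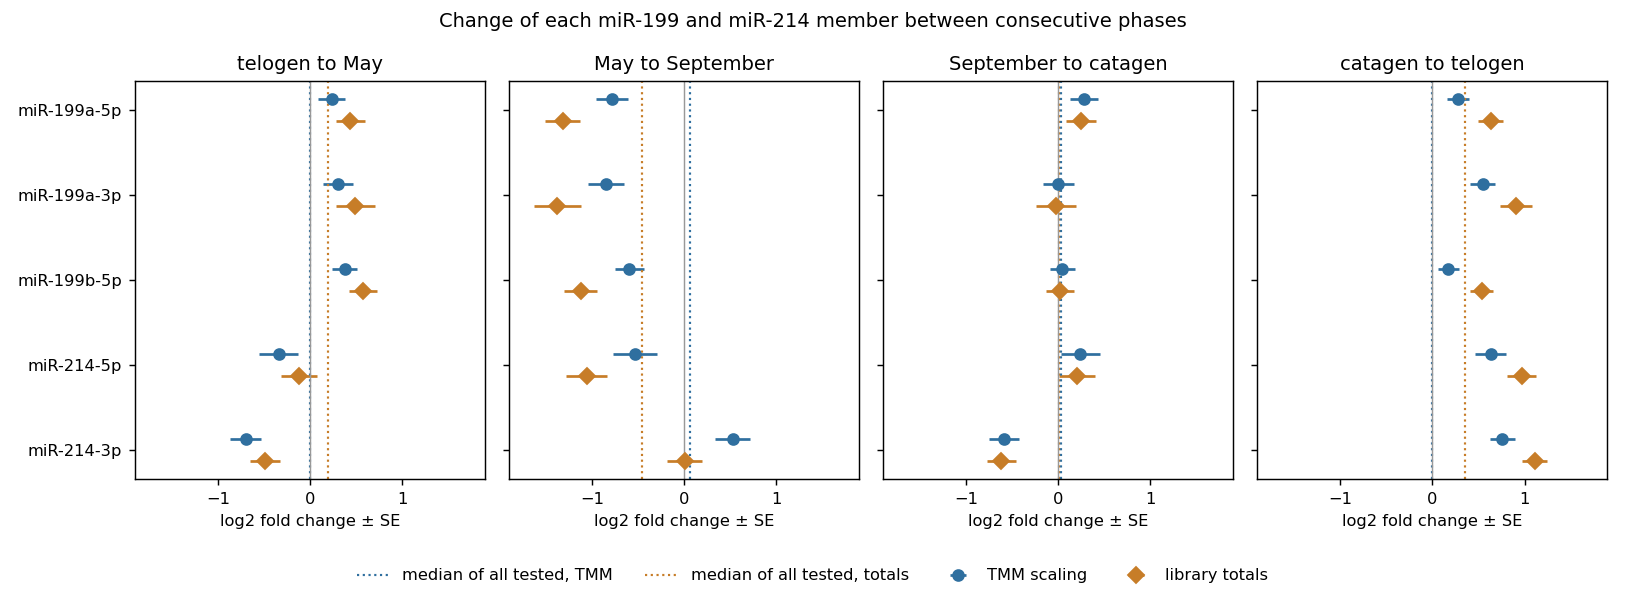
Log2 fold change with its standard error (horizontal axes) of each member (vertical axis) between consecutive phases, after TMM scaling (circles) and with library totals (diamonds). Dotted lines mark the median of all 300 miRNAs on each scale. From May to September the 3 miR-199 members lie left of both lines. On each scale miR-214-3p lies right of the line of that scale.

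In a fit of the 6 months, edgeR with TMM scaling called members at 1 of the 6 steps. From May to September the 3 miR-199 members were lower, with 13.7% of all tested lower and 30.7% called. With this fit no member was called from February to March, March to May, September to November, November to December or December to February, with 2, 1, 1, 0 and 2 members at an unadjusted p under 0.05. Of all miRNAs, 5%, 17.3%, 4.33%, 3.33% and 22.3% had such a p at these steps. By adjusted p, edgeR called 0% in the first 4 and 2.67% from December to February. DESeq2 called no member in the first 4 steps, although it called 10 of all miRNAs in the second. In the last step DESeq2 called 2 members, miR-214-5p at 0.85 (adjusted p = 0.0403) and miR-214-3p at 0.90 (adjusted p = 0.017). The edgeR values there were 0.71 (SE 0.24, adjusted p = 0.112) and 0.77 (SE 0.21, adjusted p = 0.0937) with TMM scaling, and with library totals edgeR called miR-214-3p (1.03, adjusted p = 0.0451). From February to March the 3 miR-199 members had changes of 0.33 to 0.38, with adjusted p between 0.949 and 0.987.

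Ratios within a library do not depend on its scaling, and they set the arms of one hairpin side by side. The ratio of miR-214-3p to miR-214-5p was 0.499 and 0.556 in February, 0.601 and 0.732 in March, and 0.557 and 0.368 in May. It was 0.988 and 0.903 in September, 0.551 and 0.578 in November, and 0.502 and 0.508 in December. The arms were near to equal in both September libraries, and in the other 10 the 5p arm had from 1.37 to 2.72 times the counts of the 3p arm.

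Tested with limma over the 87 precursors that had both arms, the miR-214 ratio rose from May to September by 1.06 (SE 0.30, adjusted p = 0.00825) on the log2 scale, where 37.9% of precursors were called. It ranked 29 of 87 by the size of its change, so many precursors moved more. Without male May the change was 0.76 (adjusted p = 0.13), and without female September 0.99 (adjusted p = 0.053). From telogen to September it rose by 0.68 (SE 0.26, adjusted p = 0.0478, background 39.1%), a call that was lost with sex as a block (adjusted p = 0.0664) and in 7 of the 12 fits without 1 library. From September to catagen it changed by -0.82 (SE 0.26, adjusted p = 0.15), where 0% of precursors were called. The miR-199a arms gave no call in any of the 6 comparisons of phases, where the share of precursors called was 11.5% from telogen to May, 49.4% from catagen to telogen and 41.4% from May to catagen besides the shares above. Their change from May to September was -0.07 (SE 0.30), and miR-199a-3p had between 0.780 and 1.37 times the counts of miR-199a-5p in the 12 libraries.

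**Figure D3:**
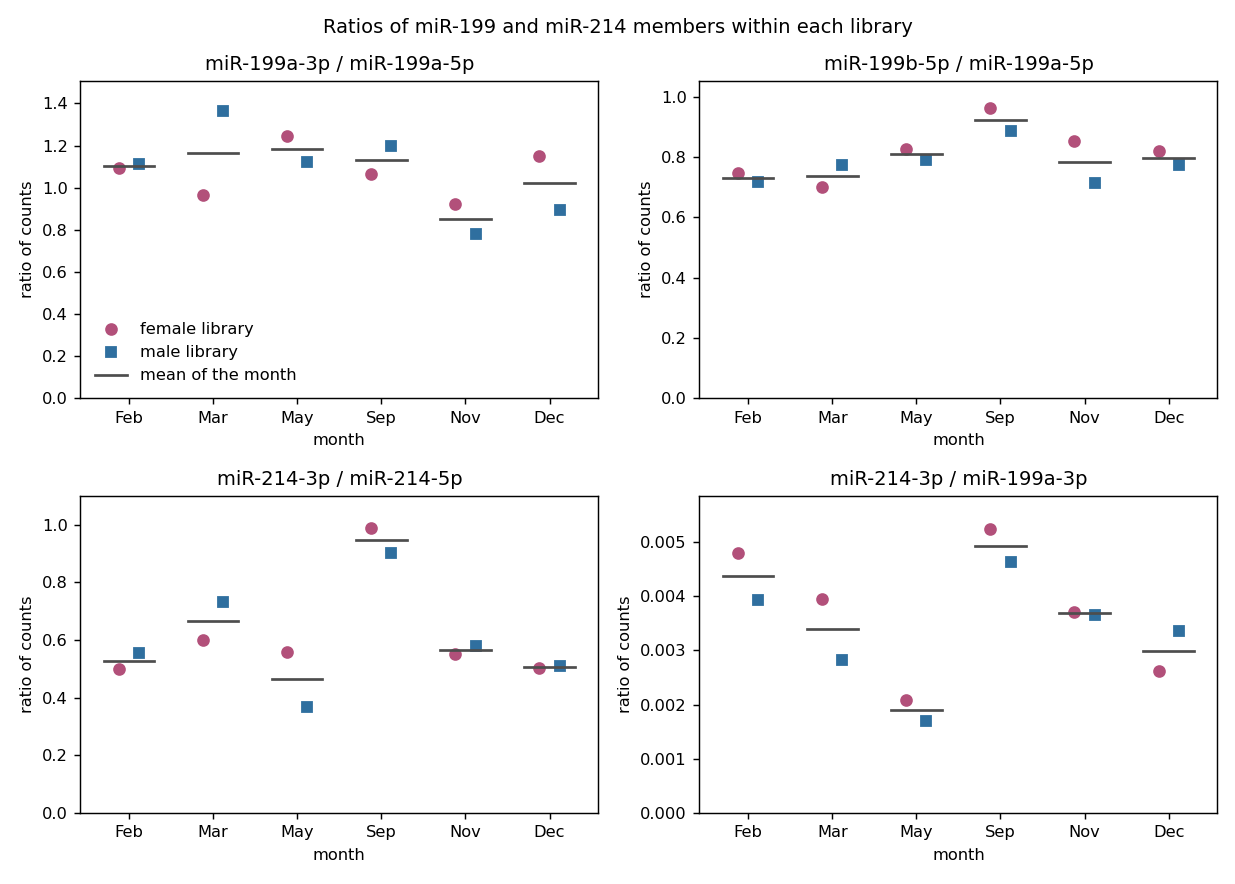
Ratio of counts (vertical axes, from 0) between members within each library by month (horizontal axes), with female libraries as circles, male as squares and the mean of a month as a line. The miR-214 arms come near to equal in September, and the ratio of miR-214-3p to miR-199a-3p is lowest in May, at 0.00208 and 0.0017.

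Both miR-199 5p arms kept a narrow ratio through the year. They are named for different loci, but how reads that match several miRNAs were assigned is not given. The ratio therefore cannot be read as that of independent loci. miR-199b-5p had 0.701 to 0.775 times the counts of miR-199a-5p in telogen, 0.827 and 0.791 in May, 0.961 and 0.885 in September, and 0.713 to 0.852 in catagen. The September libraries had the highest values, with no overlap with the others, and no test was made of that group of 2.

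The miR-214 and miR-199a arms varied more against each other, given here as a description. Counts of mature miR-199a do not show which precursor the reads came from. miR-214-3p had 0.00208 and 0.0017 times the counts of miR-199a-3p in May and 0.00525 and 0.00463 in September, and the 8 telogen and catagen libraries lay between 0.00262 and 0.00479. For the 5p arms the ratio was 0.0105 and 0.0079 in February and from 0.00464 to 0.00634 in the other 10 libraries. Between catagen and telogen, 6 ratios among members were compared by exact permutation test (two-sided, 70 arrangements, smallest possible p = 0.0286). None had a p under 0.05, even unadjusted. After adjustment over the 6, a lone ratio at the smallest p could not have passed. The lowest p was 0.0857 (adjusted p = 0.3), for miR-199a-3p over both miR-199 5p arms, with a mean log2 ratio of -0.95 ± 0.20 in catagen and -0.62 ± 0.18 in telogen (SD, n = 4 each).

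Over the 12 libraries, which all members share, the miR-199 members moved closely together and miR-214-3p stood apart. Pearson's r of log2 TMM-scaled levels was 0.89 between both miR-199 5p arms, 0.82 between both miR-199a arms and 0.85 between miR-199a-3p and miR-199b-5p. The value listed as miR-199a-3p may hold reads of the miR-199b precursor too, so these r values need not compare separate loci. Between miR-214-3p and the 3 miR-199 members it ranged from -0.06 to 0.18, and it was 0.48 between the miR-214 arms. miR-214-5p lay between, with r of 0.60 to miR-199a-5p, 0.51 to miR-199a-3p and 0.35 to miR-199b-5p. On the scale of deposited TPM, where the composition of a library moves all miRNAs, the r values were 0.94 to 0.97 among the miR-199 members, 0.51 to 0.64 between miR-214-3p and them, 0.72 between the miR-214 arms, and 0.73 to 0.82 between miR-214-5p and the miR-199 members.

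The miRNAs whose course was most like the mean of the 5 members (Pearson's r with their mean z-score, 12 libraries, TMM scale) were miR-15a-5p (0.95), miR-106b-5p (0.94), miR-99a-3p (0.92), miR-497-5p (0.92) and miR-188-5p (0.91). Of these 5, 4 were also among the first 5 with TPM, and 4 with Spearman's rho. They were high from February to May and low from September to December, miR-106b-5p with mean telogen and May levels of 413 and 493 TPM and mean September and catagen levels of 175 and 187 TPM. The opposite course was most marked for miR-27a-5p (-0.97), let-7f-5p (-0.96), miR-106b-3p (-0.95), miR-335-3p (-0.94) and miR-99b-3p (-0.94). miR-27a-5p averaged 131 TPM in telogen and 128 TPM in May, against 344 TPM in September and 296 TPM in catagen. These lower ends depended on the scale, since 1 of the 5 was shared with TPM and 3 with Spearman's rho. Both arms of miR-106b stood at opposite ends. The mean of the 5 need not describe each member, since miR-214-3p stood apart. Taken alone, miR-199a-5p was closest to miR-199b-5p (0.89), miR-199a-3p to miR-376c-3p (0.92) and miR-199b-5p to miR-365-3p (0.92). The closest to miR-214-5p was miR-190a-5p (0.89), and to miR-214-3p miR-16a-5p (0.81).

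**Figure D4:**
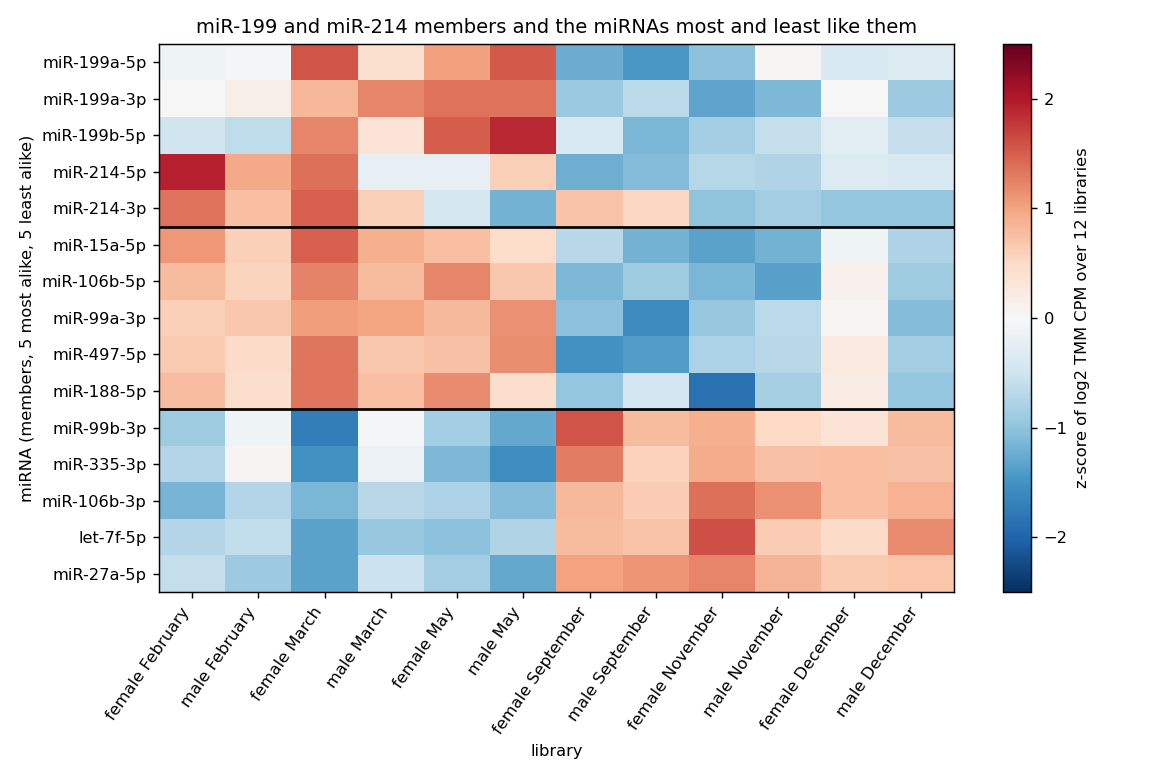
Z-scores of log2 TMM-scaled CPM over the 12 libraries (colour) for the 5 members and the 5 miRNAs most and 5 least like their mean (rows), by library (columns). The miR-199 members and the most alike miRNAs are above their mean in most libraries from February to May and below it in most from September to December, and miR-214-3p is above its mean in September and below it in May.

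Since these clusters are known as dermal, miRNAs typical of the cell types a dissected follicle can hold were read beside them. Of 8 stromal miRNAs (both arms of miR-140, miR-143, miR-145 and miR-455), all were detected in every library, with a summed TPM of 72051 to 99537 in telogen, 76508 and 77263 in May, 115359 and 117199 in September, and 92196 to 118202 in catagen. Most of this sum was miR-143-3p, with a mean TPM of 89982, a miRNA known from smooth muscle and fibroblasts that is not limited to stroma. In the authors' in situ hybridization its signal lay in the hair matrix of SHFs, so its level here cannot be read as stromal. From May to September 2 of the 8 rose, where 18.7% of all miRNAs were higher and 15.3% lower. These were miR-143-3p, by 1.17 (SE 0.20, adjusted p = 0.00131), and miR-145-3p, by 0.68 (SE 0.21, adjusted p = 0.0252), on the log2 scale. One fell like the miR-199 members, miR-140-5p at -1.04 (SE 0.31, adjusted p = 0.0211), and the other arm of miR-143, miR-143-5p, had a change of -0.32 (adjusted p = 0.391). From catagen to telogen 1 rose and 3 fell, where 14% of all miRNAs were higher and 21% lower, miR-143-3p at -0.55 (SE 0.14, adjusted p = 0.00873) and miR-145-5p at -0.85 (SE 0.20, adjusted p = 0.00613). The 8 miRNAs of this list thus had no common direction at either step.

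Epithelial miRNAs were abundant too, none of the 10 at 0 in any library, with a summed TPM of 58747 to 97683 in telogen, 82107 and 89441 in May, 58142 and 74092 in September, and 68838 to 95452 in catagen. From May to September 3 of them rose and none fell (18.7% of all miRNAs were higher), and from catagen to telogen 1 rose and 4 fell, among them miR-203, a miRNA of differentiating epidermis, at -0.57 (SE 0.15, adjusted p = 0.0124), with a background of 14% higher and 21% lower. Most of the epithelial sum was miR-203, with a mean TPM of 63230, so each of these sums follows a single miRNA and was not read as the size of a compartment. In such bulk samples fewer cells of a type and less RNA per cell cannot be told apart, and the part of these cell types in the changes of the members was not tested.

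Markers of blood, muscle and vessels had lower summed levels. The summed TPM of both erythrocyte miRNAs (miR-144 and miR-451) was 27.9 to 115 in telogen and 5.41 to 26.4 in catagen, and miR-451-5p rose from catagen to telogen by 1.45 (SE 0.52, adjusted p = 0.0476), along with miR-214 and miR-199a-3p. Of 4 leukocyte miRNAs, summing to between 393 and 664 TPM, 2 rose from catagen to telogen (14% of all miRNAs), and 2 from May to September (18.7%). Those that rose from catagen to telogen were both arms of the single precursor miR-223. The others were not called there and pointed the opposite way, miR-155-5p at -0.38 (adjusted p = 0.0981) and miR-150 at -0.05 (adjusted p = 0.884). Of 5 muscle miRNAs tested, 1 rose from May to September (18.7% of all miRNAs), miR-1 by 1.19 (SE 0.33, adjusted p = 0.0146). The other 4 were not called and pointed the opposite way, from -0.77 for miR-133a-5p to -0.16 for miR-499-5p. The median of the 5 was -0.19, against 0.07 for all miRNAs. The summed TPM of the muscle miRNAs listed lay between 1902 and 3614. Both endothelial miR-126 arms summed to between 8819 and 12699 TPM. From May to September miR-126-3p rose by 0.63 (SE 0.22, adjusted p = 0.0451), where 18.7% of all miRNAs were higher. The other arm, miR-126-5p, pointed the opposite way at -0.67 (SE 0.31, adjusted p = 0.117) and was not called. Their part in the results of the members was not tested.

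A pair of further groups was read beside the members. Of 6 fibrosis-linked miRNAs tested (miR-21 and miR-29, which act on growth and on collagen genes), 2 rose from catagen to telogen, miR-21-5p by 0.59 (SE 0.15, adjusted p = 0.00975) and miR-29a-3p by 0.80 (SE 0.23, adjusted p = 0.0165), and from May to September 1 rose and none fell. The shares of all miRNAs higher at these steps were 14% and 18.7%. Of 33 miRNAs tested from the imprinted DLK1-DIO3 cluster, a large cluster expressed in mesenchyme, 9 fell and none rose from May to September, with a median log2 change of -0.73 against 0.07 for all miRNAs, of which 15.3% were lower. From catagen to telogen 10 rose and none fell, with a median of 0.78 against 0.00 and 14% of all miRNAs higher. Of the 4 with the highest mean TPM, miR-494 fell from May to September, at -1.75 (SE 0.60, adjusted p = 0.0395). The others were not called at that step, with changes of 0.41 for miR-379-5p (adjusted p = 0.515), 0.48 for miR-127-3p (adjusted p = 0.413) and 0.18 for miR-493-5p (adjusted p = 0.827). The filter on low counts could admit a DLK1-DIO3 miRNA of low level through the months where it was high. miR-369-5p, counted among those that fell, averaged 5.73 TPM in May and 1.16 TPM in September. The counts and medians of this list were thus partly set by the filter.

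Female and male libraries did not differ detectably in any member. With month as a term, edgeR and DESeq2 each called 0 of 5 members, with 0 at an unadjusted p under 0.05, and 0% of all 300 miRNAs, of which 34 (11.3%) had an unadjusted p under 0.05. The log2 differences, male minus female, ran from -0.15 (SE 0.13) for miR-214-3p to 0.01 (SE 0.10) for miR-199a-5p. Computed in female and in male libraries apart, the fall from May to September was -0.68 and -0.89 for miR-199a-5p, -0.90 and -0.80 for miR-199a-3p, and -0.46 and -0.73 for miR-199b-5p. For miR-214-3p the change was 0.43 in female and 0.64 in male libraries on the same TMM scale.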

How the data were processed

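Small RNA libraries of dissected SHFs were sequenced by the authors, who trimmed adapters, mapped reads to CHIR_2.0, quantified miRNAs with Bowtie 0.12.9 and deposited, per library and miRNA, raw counts beside TPM. Recomputing TPM from counts and library totals gave the deposited values to within 0.00499. How reads that match several miRNAs were assigned is not given in the sources used here.

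From the counts, miRNAs over 5 CPM in at least 2 libraries were tested in R 4.3.3 with edgeR 4.0.16 (TMM, quasi-likelihood, 1 fit of 4 phases, a fit of 6 months, and sex with month as a term). Adjusted p are Benjamini-Hochberg values over all miRNAs tested, and called means an adjusted p under 0.05. Standard errors are the log2 fold change over the square root of F. Arm ratios (log2, 1 added to each count) went into limma 3.58.1, with a mean count of at least 10 for each arm. DESeq2 1.42.0, RLE scaling, library totals, other filters, sex as a block, fits of the compared groups alone and leaving out each library were alternatives. Both libraries of a month differed by 65.2 to 635 times the chi-square degrees of freedom, so none was taken as a repeat deposit. Depth was 3135292 to 5788032 counts per library. The scripts were tested on simulated counts.

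The members, the lists and the rule for other named miRNAs (5 most and 5 least alike, and up to 4 of the highest TPM in a list) were chosen with earlier results of these data known.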

Additional observations from a re-analysis of the deposited data

Results flagged for a closer look

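In 3 measures the difference between male and female libraries pointed one way in both telogen months and the other way in both catagen months, a comparison that was made for 11 measures and not tested. For miR-214-3p, male minus female differed between telogen and catagen by -0.31 on the log2 scale, with -0.23 in February, -0.33 in March, 0.05 in November and 0.00 in December. For the ratio of miR-199a-3p to miR-199a-5p the difference was 0.57, and for miR-199a-3p over both miR-199 5p arms 0.48. Each rests on 2 months a phase. No library lay apart from its group of 4 in 32 checks of members and ratios.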

How the results depend on the processing

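Each phase had 2 to 4 libraries, and those of May and September, at 2 each, bound what their comparisons can show, for miR-214-3p, with 98 to 376 counts a library, counting error adds to this. The fall of miR-199a-5p from May to September was called under every alternative tried, and the 3 calls from catagen to telogen were kept when any 1 library was left out. With library totals, 5 members were called from catagen to telogen (36.3% of all miRNAs), 5 from May to catagen (45.7%) and 5 from telogen to September (28.7%). On that scale the median log2 change of all miRNAs was 0.35, -0.47 and -0.29 at these steps. From December to February 1 member was called with library totals and 2 with DESeq2, which called 20 of all miRNAs there. The number called from telogen to May was 0 with no filter on low counts and 0 in a fit of only the groups compared, and the number from telogen to September was 0 in that fit. Over all miRNAs, DESeq2 called 40 from telogen to May against 16 by edgeR, 20 against 8 from December to February, 10 against 0 from March to May and 3 against 0 from September to catagen. Of single members, miR-214-3p from May to September lost its call with RLE, DESeq2, library totals, no filter and only the groups compared (adjusted p from 0.0502 to 0.985). miR-199a-5p was called from catagen to telogen with RLE, DESeq2, library totals and a filter of 100 CPM (adjusted p from 0.00381 to 0.0442).

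Leaving out 1 library in turn, the number of members called ranged from 0 to 3 from telogen to May, 2 to 4 from May to September, 1 to 3 from May to catagen and 0 to 3 from telogen to September. The lowest number came without male May for May to catagen, and without either September library for telogen to September. Without male March, 3 were called from telogen to May. Where a group of 2 lost a library, the lone library was taken to vary like the other groups. The log2 change of the miR-214 arm ratio from May to September ranged from 0.76 to 1.35. From telogen to September it ranged from 0.59 to 0.78, lost its call in 7 of these fits, and was 0.68 (adjusted p = 0.0664) with sex as a block. The ratio of miR-214-5p to miR-199a-5p between catagen and telogen ranged from 0.16 to 0.49, the latter without male March and with the smallest p the exact test could then give (0.0286).

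Directions that turned belonged to changes that were not called. Most of these lay near 0, but the miR-214 arm ratio from May to catagen was at 0.24 (SE 0.26). From September to catagen, miR-199a-3p was at -0.0025 with RLE, -0.025 with library totals, -0.0024 with DESeq2, -0.048 with no filter, -0.057 with a filter of 100 CPM and -0.020 with only the groups compared, and miR-199b-5p was at -0.011 with that stricter filter. Between months, RLE and DESeq2 gave -0.043 and -0.043 for miR-214-3p from February to March, -0.0097 and -0.0097 for miR-199a-5p from November to December, and 0.097 and 0.097 for miR-199b-5p from December to February. Library totals gave 0.011 for miR-214-5p from March to May, -0.075 for miR-199b-5p from September to November, 0.087 for miR-214-3p from November to December, 0.23 for miR-199b-5p from December to February and 0.034 for miR-199b-5p between sexes. Without 1 library, the September to catagen change ranged from -0.089 to 0.078 for miR-199a-3p and from -0.046 to 0.14 for miR-199b-5p. The sex difference then ranged from -0.046 to 0.20 for miR-199a-5p, -0.014 to 0.11 for miR-199a-3p, -0.084 to 0.080 for miR-199b-5p and -0.20 to 0.097 for miR-214-5p. The arm ratio of miR-199a ranged from -0.0030 to 0.16 from telogen to May, -0.15 to 0.019 from May to September and -0.081 to 0.098 from telogen to September, and that of miR-214 from -0.061 to 0.53 from May to catagen. The causes of these turns were not tested. No paired analysis was possible because the labels give no replicate numbers that pair libraries across months; sex as a block changed no other call than the arm ratio named above.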
